A study of Mus musculus with 24 samples.

Results

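The 47 genes described here are the Wnt ligands, their receptors and co-receptors, the R-spondins, the secreted and cell-surface inhibitors, the secretion and transduction genes, and the feedback targets of the pathway. They were chosen by gene name from the array annotation, by a rule that uses no measured value but was written with earlier results of these data known, out of 36610 genes or transcripts on the array. All 47 had a probe, 81 probes in all, and 45 passed the filter on dim signal and were tested. The inhibitors Dkk1 and Dkk4 were not well above background on any of the 24 arrays and have no value below. The probe of Rspo2 was well above background on 23 arrays, and the probes of the other 44 tested members on all 24.

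Whisker (vibrissa) follicles were taken from B6C3F1 mice at postnatal day 9 and kept for 24 h in RPMI 1640 medium with 10% serum. The control group had no added compound. Panthenyl ethyl ether, a derivative of the provitamin panthenol, was added at 0.3% (group PEE). Pyridoxine hydrochloride, a form of vitamin B6, was added at 0.015% (group PH), and tocopherol acetate, an ester of vitamin E, at 0.024% (group TA). A further 4 groups had each pair (PEE-PH, PEE-TA, PH-TA) or all 3 compounds (PEE-PH-TA). Each of the 8 groups had 3 samples from independent experiments, a sample was the RNA of 10 whole follicles, and each was hybridised to a one-colour Agilent array. The series asks how the compounds act singly and together on follicles in culture. A follicle holds epithelial, dermal, vascular, nerve and immune cells, so every value is a mean over these cell types.

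Wnt proteins are lipid-modified growth factors that bind a Frizzled receptor and an Lrp co-receptor. Binding keeps beta-catenin from being degraded, and beta-catenin then works with TCF/LEF factors to turn on target genes. R-spondins raise the number of receptors on the cell surface, while Sfrp, Dkk, Wif1, Kremen and Notum proteins hold the signal back. In the hair follicle the pathway is known for its part in starting growth, in keeping the dermal papilla able to instruct hair growth and in hair shaft differentiation.

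Levels are log2 of the processed signal minus log2 of the 75th percentile of signal on the same array, so a level of 0 is at that percentile. They were compared within a gene only. Values after ± are standard errors of the limma fit unless SD is named, "rose" and "fell" mean a limma adjusted p under 0.05 over 22065 genes, and a single replicate is named by its group and number. The average effect of a compound sets the 12 arrays with it against the 12 without, as the mean log2 difference over the 4 backgrounds that the other compounds make. P-values measure the spread between these samples. On the arrays 58.3 to 62.5% of the spots were well above background and no spot was saturated. The 75th percentile of signal moved with the groups. It was 155 to 190 intensity units in the control arrays, 142 to 147 with PEE, 180 to 192 with PH, 175 to 200 with TA, 199 to 217 with PEE-PH, 177 to 200 with PEE-TA, 203 to 248 with PH-TA and 175 to 187 with PEE-PH-TA. In the fits below with this array signal as a covariate, treatment and array signal therefore cannot be fully told apart. A call can be lost in such a fit with the estimate little changed.

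PEE lowered the R-spondin Rspo2, the acyltransferase Porcn and the ligand Wnt7b, and raised the ligand Wnt16. In the average effect of PEE, 12 of 45 members passed the test, 3 higher and 9 lower, against 27% of all genes (12.8% higher and 14.2% lower), so the members' share was near that of all genes. The median log2 difference of the members was -0.07, and that of all genes was 0.01. Besides Wnt16 the frizzled receptors Fzd3 (0.20 ± 0.06, limma adjusted p = 0.0124) and Fzd1 (0.18 ± 0.06, limma adjusted p = 0.0352) rose. With the array's log2 75th percentile as a covariate 5 members passed, 2 higher and 3 lower, against 22.1% of all genes, and all 5 were among the 12. They were Rspo2, Porcn, Wnt7b, Wnt16 and Fzd3. With another background step, normexp, the split was 4 higher and 7 lower, against 26.3% of all genes in either direction. With replicate number 1, 2 or 3 of every group left out, 10, 3 and 5 members passed. In whole follicles, fewer cells of a type and less RNA per cell cannot be told apart.

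**Figure D1:**
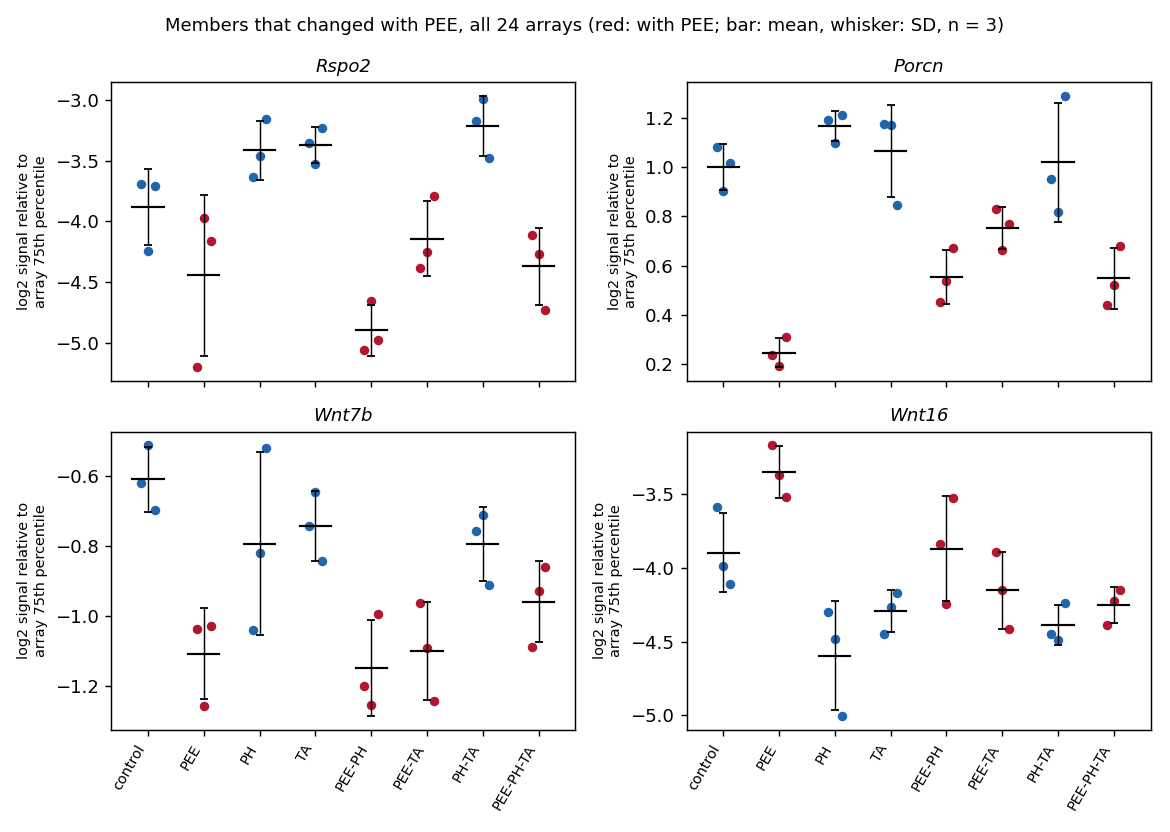
Level of 4 members in all 24 arrays, on the log2 scale relative to the 75th percentile of the array, by group. Red points are groups with PEE and blue points groups without it, bars are means and whiskers SDs (n = 3). The 3 PEE arrays of Porcn, at 0.19 to 0.31, lie below all other arrays.

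Rspo2, a secreted ligand of the Lgr receptors that strengthens Wnt signalling, had the largest average effect of PEE among the tested members. Its probe on the array lies at chr15:42852727-42852786 of mm9 on the minus strand, and its first 30 bases are shown because the result rests on this 1 probe.
Rspo2: ccttaggtcagtttgtccttagattatgaa
The 12 arrays without PEE ran from -4.25 to -2.99 with a median of -3.47, and the 12 arrays with PEE from -5.20 to -3.79 with a median of -4.33. The 2 sets overlapped between -4.25 and -3.79. The average effect was -0.996 ± 0.13 (limma adjusted p = 1.45e-05), and on the 3 slides, each of which held 1 array of every group, it was -1.23, -0.73 and -1.02. The difference was -0.56 against control, -1.49 on top of PH, -0.77 on top of TA and -1.16 on top of both, so it had the same sign in all 4 backgrounds. Control arrays stood at -3.69, -4.25 and -3.71 and PEE arrays at -5.20, -3.97 and -4.16. PEE replicate 1, the lowest, was the 1 array whose spot was not well above background. PEE alone did not pass against control (-0.56 ± 0.26, limma adjusted p = 0.190), while PEE-PH did, at -5.06, -4.66 and -4.98 and a difference of -1.02 ± 0.26 (limma adjusted p = 0.00590). The PEE-PH call ended in the authors' value table (-0.45, limma adjusted p = 0.104) and with the array signal as a covariate (-0.92, limma adjusted p = 0.105). With normexp background, whose offset compresses dim probes, the average effect was -0.13, and in the authors' value table it was -0.69, and the call stayed in both.

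Porcn, the enzyme of the endoplasmic reticulum that attaches the lipid without which Wnt proteins are not secreted, fell with PEE on average. The estimate was lower with PEE in each background, and only the step from control to PEE was tested by itself. The probe lies on chromosome X, at chrX:7770977-7771036 of mm9 on the minus strand, and its opening bases are given because all Porcn values come from it.
Porcn: ctgccgtctcccttttttatatgcagtttg
Control arrays stood at 1.08, 0.90 and 1.02, and PEE arrays at 0.24, 0.19 and 0.31. All 3 PEE arrays were below all 3 control arrays, and the difference was -0.75 ± 0.11 (limma adjusted p = 2.12e-04). PEE-PH arrays stood at 0.45, 0.54 and 0.67 (-0.45 ± 0.11 against control, limma adjusted p = 0.00405). PEE-PH-TA arrays stood at 0.44, 0.52 and 0.68 (-0.45 ± 0.11, limma adjusted p = 0.00770). PEE-TA arrays were higher, at 0.83, 0.66 and 0.77, and did not pass (-0.25 ± 0.11, limma adjusted p = 0.104). Over the backgrounds the average effect was -0.54 ± 0.05 (limma adjusted p = 7.43e-07), with -0.61, -0.52 and -0.48 on the slides. The arrays with PEE ran from 0.19 to 0.83 and those without from 0.82 to 1.29, so that 1 array with PEE reached the range of the others. Wls, the carrier that takes lipid-bearing Wnt proteins to the cell surface, fell by 0.17 (limma adjusted p = 0.00995), but the average over its 2 tested probes was -0.09 and did not pass.

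Wnt7b, a ligand made by follicle epithelium, fell with PEE on average. Its estimate was lower with PEE in each background, and only the step from control to PEE was tested by itself. The probe that stands for the gene lies at chr15:85365877-85365935 (mm9, minus strand), and its first 30 bases are shown because the values below come from it.
Wnt7b: tgggctgtgttcctgcctcctctggagggg
Control arrays stood at -0.62, -0.51 and -0.70 and PEE arrays at -1.04, -1.26 and -1.03, without overlap. The difference was -0.50 ± 0.12 (limma adjusted p = 0.00966). Against control, PEE-PH differed by -0.54 ± 0.12, PEE-TA by -0.49 ± 0.12 and PEE-PH-TA by -0.35 ± 0.12, and each passed (limma adjusted p = 0.00160, 0.00537 and 0.0464). The groups without PEE did not pass: PH differed by -0.18, TA by -0.13 and PH-TA by -0.19. The average effect of PEE was -0.34 ± 0.06 (limma adjusted p = 1.95e-04), with -0.28, -0.46 and -0.29 on the slides. Arrays with PEE ran from -1.26 to -0.86 (median -1.06) and arrays without from -1.04 to -0.51 (median -0.73). The PEE call against control was lost without control replicate 2 (-0.45, limma adjusted p = 0.0511) or PEE replicate 2 (-0.42, limma adjusted p = 0.0555), and with the array signal as a covariate (-0.35, limma adjusted p = 0.202). That of PEE-PH-TA was lost without any 1 of the control arrays or without PEE-PH-TA replicate 1 or 2, and in the authors' value table (-0.30, limma adjusted p = 0.0975). Of 41 average effects followed, those of PEE on Wnt7b, Rspo2 and Porcn were the 3 called in all 8 alternative settings, without each array and without each replicate number.

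Wnt16, a ligand, was the member that PEE raised most and that PH and TA lowered. Control arrays stood at -3.59, -3.99 and -4.11, PEE arrays at -3.17, -3.37 and -3.52 and PH arrays at -4.30, -4.48 and -5.01. PEE arrays lay above and PH arrays below all control arrays. The average effect was 0.39 ± 0.10 for PEE (limma adjusted p = 0.00547) and -0.35 ± 0.10 for PH (limma adjusted p = 0.0103). For TA it was -0.34 ± 0.10 (limma adjusted p = 0.0364), which passed in 11 of the 24 fits without 1 array. On the slides it was 0.38, 0.31 and 0.48 for PEE and -0.47, -0.42 and -0.18 for PH. Over the arrays with and without PEE the levels were -4.41 to -3.17 (median -4.02) and -5.01 to -3.59 (median -4.28). With and without PH they were -5.01 to -3.53 (median -4.27) and -4.45 to -3.17 (median -4.05). Against control only PH passed (-0.70 ± 0.19, limma adjusted p = 0.0417), and PEE did not (0.54 ± 0.19, limma adjusted p = 0.0806). The PH call was lost without any 1 of the control arrays or without PH replicate 2 or 3, and under 7 other settings, among them quantile normalization (-0.52) and normexp background (-0.16). The effects of PH and TA did not pass under quantile normalization (-0.24 and -0.26) or in the authors' value table (-0.10 and -0.22), and that of PEE passed in both.

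The remaining falls with PEE were smaller. The inhibitor Sfrp2, a decoy that binds Wnt proteins, ran from 0.61 to 2.09 with PEE and from 1.29 to 2.39 without, so the arrays overlapped. Its average effect was -0.41 ± 0.12 (limma adjusted p = 0.0156), with -0.52, -0.34 and -0.38 on the slides. Tcf7, one of the TCF/LEF factors, ran from -2.64 to -1.71 (median -2.00) with PEE and from -2.29 to -1.46 (median -1.74) without, a difference of -0.24 ± 0.08 (limma adjusted p = 0.0321). The average over its tested probes was -0.09 and did not pass. The ligand Wnt6 (-0.22), the secreted protein Dkk3 (-0.20) and the receptor-removing ligase Rnf43 (-0.17) also fell, and of the 24 fits without 1 array, Tcf7 passed in 15, Dkk3 in 14, Rnf43 in 19 and Fzd1 in 12. Sfrp2, Tcf7, Wnt6, Dkk3, Rnf43, Wls and Fzd1 did not pass with the array signal as a covariate.

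Marker genes of follicle cell types moved in the same comparison. Of 7 outer root sheath and basal keratinocyte markers 0 rose and 4 fell with PEE, and their summed signal, in units of the array's 75th percentile, was 1700 to 2200 with PEE and 1830 to 2390 without. Of 7 dermal sheath and fibroblast markers 0 rose and 3 fell, with sums of 400 to 743 and 464 to 854. Of 7 macrophage markers 1 rose and 4 fell, with sums of 19.5 to 27.6 and 20 to 27.2. Of 9 dermal papilla markers 3 rose and 2 fell, with sums of 16.6 to 22.5 and 18.6 to 23.8, and the papilla marker Corin was not well above background. Of 5 endothelial markers 3 rose and 0 fell, with sums of 7.5 to 10.9 and 5.53 to 12. The part of these markers in the member results was not tested.

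In the average over the 4 backgrounds, PH raised 7 of 12 receptors, 2 of 4 R-spondins and 3 of 8 inhibitors. None of these calls held with the array signal as a covariate. In the average effect of PH 17 of 45 members passed, 16 higher and 1 lower, against 31.3% of all genes (13.9% higher and 17.4% lower). The members' median was 0.15 and that of all genes -0.02. TA gave 12 of 45, 11 higher and 1 lower, against 7.99% of all genes (2.78% higher and 5.2% lower), with a median of 0.12 for the members and -0.01 for all genes. The split for PH was 14 higher and 5 lower with normexp background, where 57.1% of all genes passed, 3688 higher and 8911 lower. With the array's log2 75th percentile as a covariate, limma called 1 member for PH, a lower one that was not among the 17, and 0 for TA, where 13 had an unadjusted p under 0.05. The members' medians were then 0.04 and 0.06, and 1.17% and 0.0272% of all genes passed. Without replicate number 1, 2 or 3 the counts were 6, 11 and 9 for PH and 3, 3 and 0 for TA, and with number 3 left out 19 members had an unadjusted p under 0.05 for TA. The part of the array signal in these results was not tested beyond this fit, which cannot fully tell it from treatment.

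**Figure D2:**
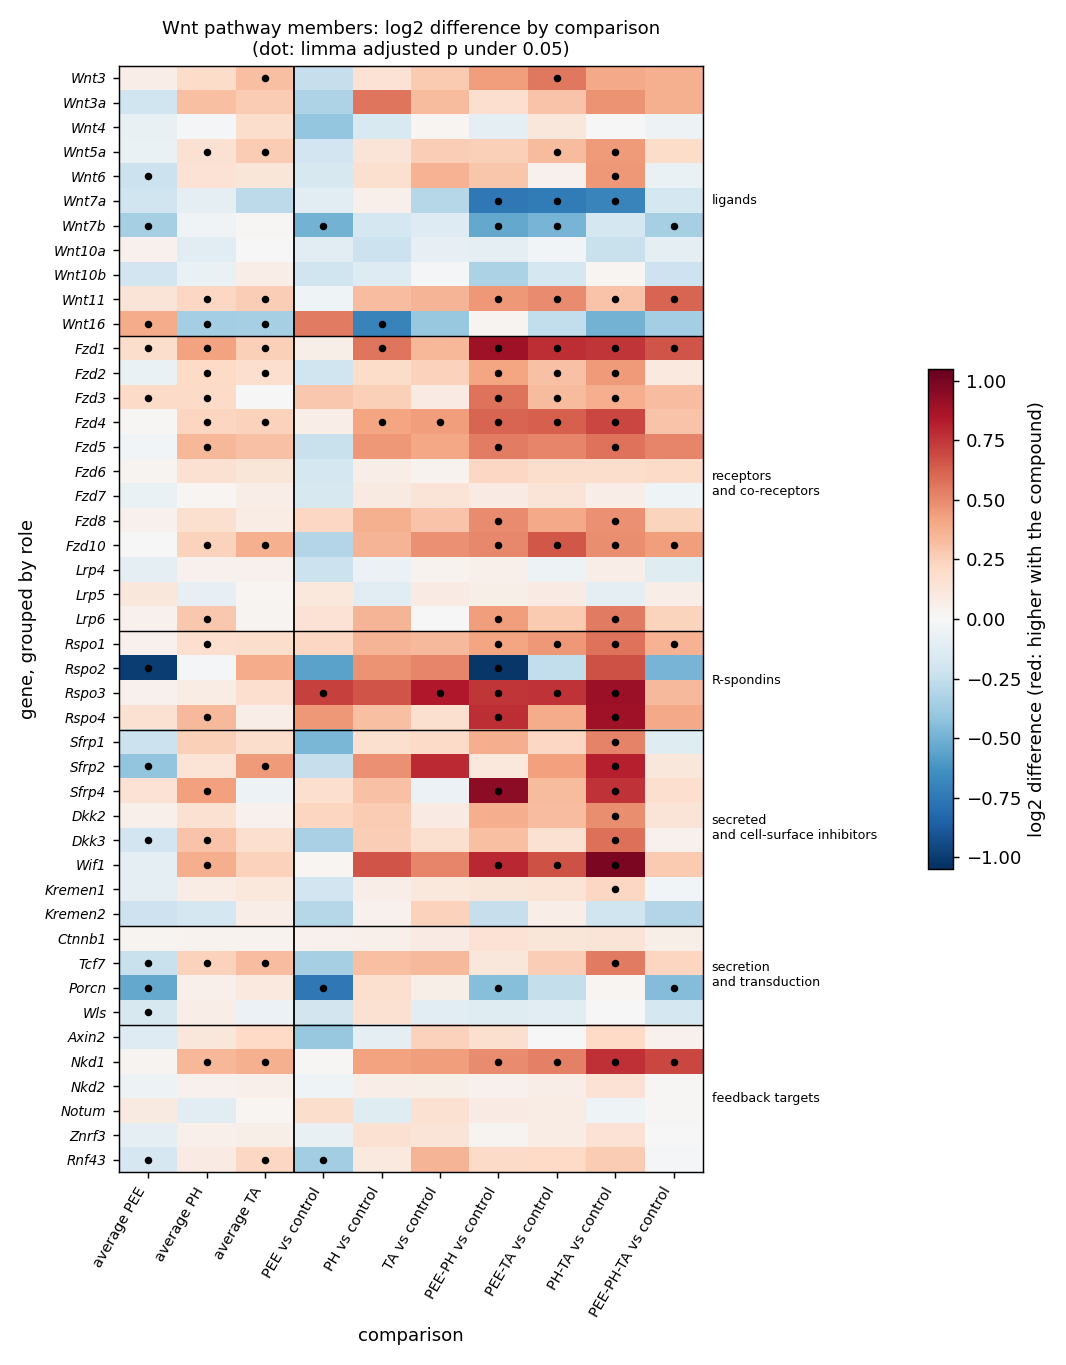
Log2 difference of the 45 tested members in the 3 average effects and in the 7 treatments against control, grouped by role. Red is higher and blue lower with the compound, and dots mark a limma adjusted p under 0.05. The receptor medians are 0.46 for PEE-PH and for PH-TA, with 8 of 12 receptors marked in each, and the lowest receptor is at 0.05 and -0.10.

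Of the 12 receptors and co-receptors, 2 rose with PEE, 7 with PH and 4 with TA (of all genes 12.8%, 13.9% and 2.78% rose), and 0 fell in any of these average effects, where the lowest receptor differed by -0.10, -0.09 and 0.01. With PH these were Fzd1 (0.42 ± 0.06, limma adjusted p = 1.18e-04), Fzd5 (0.35 ± 0.10), the co-receptor Lrp6 (0.29 ± 0.05, limma adjusted p = 9.23e-04), Fzd10 (0.24), Fzd4 (0.22), Fzd2 (0.21) and Fzd3 (0.20). With TA they were Fzd10 (0.37 ± 0.07, limma adjusted p = 0.00515), Fzd1 (0.25), Fzd4 (0.24) and Fzd2 (0.18). These are means over the 4 backgrounds. At least for Fzd1, Fzd4 and Fzd10, neither the effect of PH nor that of TA kept its sign in all of them. Fzd10 differed from control by 0.65 with PEE-TA and by 0.51 with PEE-PH, and by less with PEE-PH-TA. Frizzled receptors are the membrane proteins that bind Wnt directly, and Lrp6 is their partner for the beta-catenin branch. None of these 11 calls held with the array signal as a covariate, where the estimates were 0.38 for Fzd1, 0.20 for Fzd5, 0.10 for Lrp6, 0.17 for Fzd10, 0.29 for Fzd4, 0.09 for Fzd2 and 0.13 for Fzd3 with PH. The co-receptor Lrp5 was not called on the probe used (-0.09 with PH and 0.02 with TA), whereas its other probe fell by 0.31 with PH and by 0.43 with TA.

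Fzd1 and Fzd4 are described by array although the rule for array values did not choose them, since their calls against control were seen first. For Fzd1 the probe lies at chr5:4754003-4754062 of mm9 on the minus strand and opens as follows.
Fzd1: caaatgccgatacatacataggacctaaat
Control arrays of Fzd1 stood at 2.12, 2.22 and 2.34 and PEE arrays at 2.25, 2.39 and 2.22, and these overlapped. PH arrays stood at 2.56, 2.93 and 2.89, PEE-PH arrays at 3.15, 3.07 and 3.16, and PH-TA arrays at 3.21, 2.86 and 2.87, all above the control arrays. The differences from control were 0.57 ± 0.12 for PH, 0.89 ± 0.12 for PEE-PH, 0.77 ± 0.12 for PEE-TA, 0.75 ± 0.12 for PH-TA and 0.66 ± 0.12 for PEE-PH-TA, with limma adjusted p from 3.43e-05 (PEE-PH) to 0.0136 (PH). Fzd1 was thus lower with PEE-PH-TA than with PEE-TA or PEE-PH. The estimate fell when PH was added to PEE-TA and when TA was added to PEE-PH, and neither step was tested on its own. The PH call was lost without control replicate 1 or PH replicate 2 or 3. With the array signal as a covariate the difference for PEE-PH was 0.83 (limma adjusted p = 0.00448), that for PEE-PH-TA 0.64 (limma adjusted p = 0.00319) and that for PH-TA 0.67, the last of which did not pass (limma adjusted p = 0.129). Fzd4 stood at 0.01, -0.13 and 0.21 in control arrays, at 0.44, 0.47 and 0.51 with TA and at 0.65, 0.79 and 0.77 with PH-TA. It rose with PH (0.42), TA (0.44), PEE-PH (0.61), PEE-TA (0.63) and PH-TA (0.70), and the call with PH was lost without control replicate 1 or 2 or PH replicate 1 or 2, that with TA without any 1 of the 6 arrays compared. The effect of PH on top of PEE-TA minus that of PH alone was -0.74 for Fzd4. This is larger in size than the 0.42 of PH alone, so the estimate of Fzd4 fell when PH was added to PEE-TA. The PH-TA difference of Fzd4 was the 1 member call of that comparison that held with the covariate (0.82, limma adjusted p = 0.0397).

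**Figure D3:**
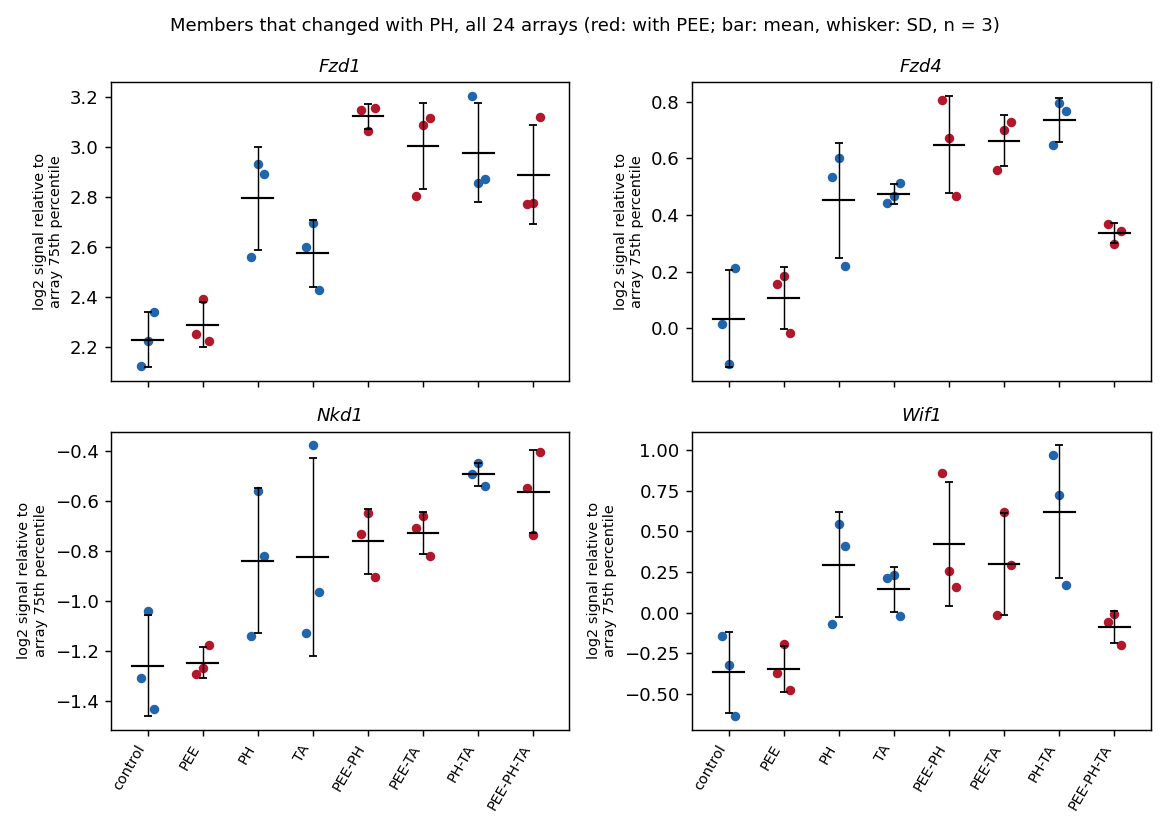
Level of 4 members in all 24 arrays, on the log2 scale relative to the 75th percentile of the array, by group. Red points are groups with PEE and blue points groups without it, bars are means and whiskers SDs (n = 3). Control and PEE arrays of Fzd1 overlap at 2.12 to 2.39, and all arrays of the other 6 groups lie above them.

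**Figure D4:**
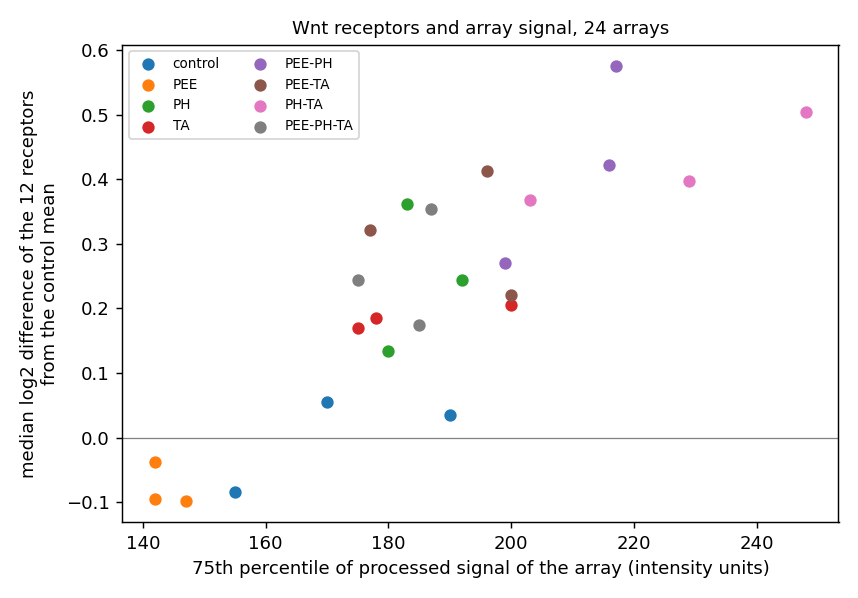
Median log2 difference of the 12 receptors from their control means in each array, against the 75th percentile of processed signal of that array in intensity units. Colours are the 8 groups. PEE arrays, at 142 to 147 units, lie at -0.10 to -0.04, control arrays, at 155 to 190 units, at -0.08 to 0.05, and PH-TA arrays, at 203 to 248 units, at 0.37 to 0.50.

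Array by array, the median of the 12 receptors relative to their control means was -0.10 to -0.04 with PEE, 0.13 to 0.36 with PH and 0.17 to 0.21 with TA. Of the pairs, PEE-PH arrays lay at 0.27 to 0.58, PEE-TA arrays at 0.22 to 0.41 and PH-TA arrays at 0.37 to 0.50, and the PEE-PH-TA arrays lay at 0.17 to 0.35. Control arrays lay at -0.08 to 0.05. The PEE arrays, with the lowest 75th percentile of signal, overlapped the control arrays in receptor median, and the other groups lay above both. The PH-TA arrays, which included the highest 75th percentile, had receptor medians within the range of PEE-PH.

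Of the 11 ligands, 2 rose and 1 fell with PH, and 3 rose and 1 fell with TA. That is 27.3% with PH and 36.4% with TA, against 31.3% and 7.99% of all genes in either direction. Wnt11 rose with PH (0.22 ± 0.05, limma adjusted p = 0.00403) and TA (0.26 ± 0.05, limma adjusted p = 0.00742), and Wnt5a with PH (0.16) and TA (0.26). Both are ligands best known for signalling without beta-catenin. Wnt3, a ligand of the beta-catenin branch, rose with TA (0.31 ± 0.09, limma adjusted p = 0.0371). Of the 24 fits without 1 array Wnt3 passed in 14 with TA and Wnt5a in 18 with PH. The fall was Wnt16 in both. Wnt11 stood at 0.02, -0.05 and -0.07 in control arrays and at 0.43, 0.55 and 0.76 with PEE-PH-TA, without overlap, and that difference was 0.61 ± 0.10 (limma adjusted p = 5.54e-04). All 3 pairs passed too (PEE-PH 0.45, PEE-TA 0.50, PH-TA 0.30). With PH alone the difference was 0.32 and with TA alone 0.36, and neither passed in the main fit. On top of each other, PH and TA thus did not raise the estimate of Wnt11. The PEE-PH, PEE-TA and PEE-PH-TA calls of Wnt11 held with the array signal as a covariate. Those of its average effects of PH and TA did not.

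Promoters were searched for 3 motifs on both strands in the 250 bases before the start, in RefSeq promoters of build GRCm38.p6 that were found for 27 of the 47 members (31 promoters). CTTTGAT, a TCF/LEF motif, was in 3.21% of 32851 promoters, and among members in Wnt11. The related CTTTGAA was in 4.46% of promoters, and among members in Dkk1. TGACNNNGC, the core of the antioxidant response element, was in 10.2% of promoters, and among members in Ctnnb1, Fzd5, Wnt11 and Wnt16. In Wnt11 it was in another promoter (chr7:98838595-98838894) than CTTTGAT, and that promoter is not shown. The motifs can share bases with other motifs and a match is a description of letters only. The 150 bases before the start are shown for Wnt16 (chr6:22288077-22288226, plus strand) and Wnt11 (chr7:98834962-98835111, plus strand), 2 ligands that changed in at least 2 average effects, with the match in capitals: the antioxidant response core on the opposite strand in Wnt16, at -59, and CTTTGAT on the opposite strand in Wnt11, at -51.
Wnt16: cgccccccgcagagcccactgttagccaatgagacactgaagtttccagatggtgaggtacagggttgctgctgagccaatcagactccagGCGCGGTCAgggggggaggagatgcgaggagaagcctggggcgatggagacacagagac
Wnt11: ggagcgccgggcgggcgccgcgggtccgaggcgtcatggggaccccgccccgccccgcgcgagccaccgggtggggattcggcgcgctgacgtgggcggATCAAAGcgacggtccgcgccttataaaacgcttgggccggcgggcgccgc

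Of the 4 R-spondins, Rspo4 (0.34 ± 0.12, limma adjusted p = 0.0354) and Rspo1 (0.17 ± 0.06, limma adjusted p = 0.0290) rose with PH on average, and 0 passed with TA. Among all genes 31.3% passed with PH and 7.99% with TA in either direction. Rspo4, best known for its role in nails, ran from -3.90 to -2.46 (median -3.33) with PH and from -4.10 to -3.19 (median -3.70) without. On the slides the PH effect was 0.74, 0.11 and 0.17, and without replicate number 1 it was 0.14 and did not pass. Of the 24 fits without 1 array Rspo4 passed in 13 and Rspo1 in 18. Rspo3, another secreted R-spondin, is described by array after its values were seen. It stood at -3.60, -3.68 and -3.59 in control arrays, which differed little. It stood at -2.64, -2.77 and -3.31 with PEE, at -3.04, -2.43 and -2.90 with TA and at -2.66, -2.65 and -2.88 with PH-TA, all above control. The differences were 0.72 ± 0.20 for PEE (limma adjusted p = 0.0240), 0.84 ± 0.20 for TA (limma adjusted p = 0.0388) and 0.89 ± 0.20 for PH-TA (limma adjusted p = 0.00291). PEE-PH (0.75) and PEE-TA (0.76) also passed, PH (0.66, limma adjusted p = 0.0580) and PEE-PH-TA (0.34, limma adjusted p = 0.271) did not. The PEE call was lost without any 1 of the control arrays or without PEE replicate 1 or 2, and the TA call without any 1 of the control arrays or without TA replicate 2 or 3. With normexp background the differences were 0.19 for TA, 0.08 for PEE-PH, 0.14 for PEE-TA and 0.09 for PH-TA, and none of these passed (limma adjusted p = 0.181, 0.376, 0.151 and 0.301). The calls with PEE, TA, PEE-PH and PH-TA also ended with the array signal as a covariate. All of these comparisons share the same 3 control arrays.

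Against 31.3% and 7.99% of all genes that passed with PH and TA in either direction, 3 of the 8 inhibitors (37.5%) rose with PH and 1 (12.5%) with TA. With PH these were Sfrp4 (0.43 ± 0.09, limma adjusted p = 0.00186), Wif1 (0.38 ± 0.11, limma adjusted p = 0.0134) and Dkk3 (0.30 ± 0.07, limma adjusted p = 0.00338). These are means over the backgrounds, and none of them kept its sign in all. On top of PEE-TA the PH estimate was -0.16 for Sfrp4, -0.39 for Wif1 and -0.11 for Dkk3, and it was positive in the other backgrounds. The step from PEE-TA to PEE-PH-TA was not tested on its own. Sfrp4 and Wif1 are secreted proteins that bind Wnt and keep it from its receptors. With TA it was Sfrp2, which ran from 1.28 to 2.39 (median 1.99) with TA and from 0.61 to 2.17 (median 1.35) without. The difference was 0.45 ± 0.12 (limma adjusted p = 0.0316), with 0.58, 0.29 and 0.47 on the slides. It passed in 15 of the 24 fits without 1 array. Sfrp2 stood at 1.40, 1.29 and 1.29 in control arrays and at 2.11, 2.11 and 2.10 with TA alone, without overlap, yet this difference did not pass over all genes.

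Of the 4 secretion and transduction genes, Tcf7 rose with PH (0.24 ± 0.08, limma adjusted p = 0.0278) and TA (0.32 ± 0.08, limma adjusted p = 0.0205). It ran from -2.22 to -1.46 (median -1.72) with TA and from -2.64 to -1.69 (median -2.04) without, with 0.18, 0.35 and 0.44 on the slides. The PH call passed in 20 of the 24 fits without 1 array, and the PH estimate turned to -6e-04 with the array signal as a covariate. Ctnnb1, which codes for beta-catenin itself, was close to 0 in the average effects, at 0.03 with PEE, 0.04 with PH and 0.04 with TA, and did not pass. Another probe of Ctnnb1 fell by 0.34 with PH (limma adjusted p = 0.00104).

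The 6 feedback targets are genes that Wnt signalling turns on and whose products dampen it, and 1 of the 6 fell with PEE, 1 rose with PH and 2 rose with TA. These are 16.7%, 16.7% and 33.3% of the 6, against 27%, 31.3% and 7.99% of all genes that passed in either direction. Nkd1, an inhibitor of Dishevelled, rose with PH (0.35 ± 0.08, limma adjusted p = 0.00359) and TA (0.38 ± 0.08, limma adjusted p = 0.0113). It ran from -1.14 to -0.40 (median -0.60) with PH and from -1.43 to -0.38 (median -1.08) without. With TA it ran from -1.13 to -0.38 (median -0.60), and without from -1.43 to -0.56 (median -1.09). The slides gave 0.38, 0.24 and 0.43 for PH and 0.40, 0.32 and 0.40 for TA. Control arrays of Nkd1 stood at -1.31, -1.04 and -1.43, PH-TA arrays at -0.49, -0.44 and -0.54 and PEE-PH-TA arrays at -0.55, -0.73 and -0.40. The last 2 groups lay above all control arrays, by 0.77 ± 0.16 (limma adjusted p = 0.00229) and 0.70 ± 0.16 (limma adjusted p = 0.00593). In the fit with the array signal as a covariate, the average effects of Nkd1 were 0.11 and 0.21 and did not pass, while the difference of PEE-PH-TA from control was 0.60 and did (limma adjusted p = 0.0124).

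Axin2, a scaffold of the beta-catenin destruction complex and a widely used readout of the pathway, passed in none of the comparisons of the main fit. It stood at -3.60, -3.38 and -3.58 in control arrays, at -4.42, -3.70 and -3.63 with PEE and at -3.19, -3.37 and -3.35 with PH-TA. Its average effects were -0.13 ± 0.11 for PEE, 0.12 ± 0.11 for PH and 0.21 ± 0.11 for TA. With normexp background the signs turned, to 0.02, -0.09 and -0.04, and the value for PH passed there as a fall. The other probe of Axin2 gave -0.21, -0.16 and -0.10, none of which passed. Rnf43, a ligase that removes Frizzled receptors, fell with PEE (-0.17) and rose with TA (0.22 ± 0.06, limma adjusted p = 0.0281). It stood at -0.88, -0.84 and -1.19 in control arrays and at -1.38, -1.30 and -1.31 with PEE, a difference of -0.36 ± 0.11 (limma adjusted p = 0.0471). That call was lost without control replicate 1 or 2 or any 1 of the PEE arrays, and the average TA effect passed in 19 of the 24 fits without 1 array. Its relative Znrf3 (-0.10, 0.05 and 0.06 for PEE, PH and TA), the Wnt deacylase Notum (0.09, -0.12 and 0.02) and Nkd2 (-0.05, 0.05 and 0.06) did not pass in any average effect.

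The 2 probes of Nkd2 did not give the same result, and their opening bases are shown for that reason. The probe used lies at chr13:73956776-73956835 and the other at chr13:73957581-73957640 (mm9, minus strand).
Nkd2 probe used: tccaacaccctcacacagacatacatgtag
Nkd2 other probe: tgagtttatgaaagttgggcatgatgcctt
On the other probe Nkd2 fell with PEE by 0.30 (limma adjusted p = 3.75e-04 over all probes) and rose with TA by 0.20 (limma adjusted p = 0.0326). Which part of the transcript each probe reads is not known from the files.

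With single compounds few members passed against the 3 control arrays. With PEE 4 of 45 passed, 1 higher and 3 lower, against 10.9% of all genes (5.2% higher and 5.69% lower). With PH 3 passed, 2 higher and 1 lower, against 5.25% (1.6% higher and 3.65% lower). With TA 2 passed, both higher, against 1.83% (0.399% higher and 1.43% lower). The 4 with PEE were Porcn, Wnt7b and Rnf43, which fell, and Rspo3, which rose. With PH they were Fzd1, Fzd4 and Wnt16, and with TA Fzd4 and Rspo3. For PEE the split was 4 higher and 3 lower with normexp background, where 26.7% of all genes passed. The count for PEE was 2 without control replicate 1, 1 without control replicate 2, 2 without PEE replicate 1 and 1 without PEE replicate 2. For PH it was 0 without control replicate 1 or PH replicate 2 and 1 without control replicate 2. For TA it was 0 without any 1 of the control arrays and without TA replicate 2 or 3. In these limma fits with a count of 0, 7 to 16 members had an unadjusted p under 0.05.

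The pairs of compounds were compared with the same control arrays. With PEE-PH 19 of 45 passed, 15 higher and 4 lower, against 35.9% of all genes (14.9% higher and 20.9% lower), with a median of 0.20 against -0.06 for all genes. With PEE-TA 14 passed, 12 higher and 2 lower, against 25.5% (10.2% higher and 15.3% lower), with a median of 0.21 against -0.05. With PH-TA 24 passed, 23 higher and 1 lower, against 29.6% (12.1% higher and 17.5% lower), with a median of 0.40 against -0.06. Receptors made up 8, 5 and 8 of these rises, R-spondins 3, 2 and 3, and inhibitors 2, 1 and 7. With normexp background the splits were 14 higher and 7 lower for PEE-PH and 17 higher and 4 lower for PH-TA, where 51.1% and 54.5% of all genes passed. With the array signal as a covariate 10 passed for PEE-PH (5 higher and 5 lower, 7 of them shared), 9 for PEE-TA (6 higher and 3 lower, 8 shared) and 1 for PH-TA, beside 1 for PEE, 2 for PH and 0 for TA alone (12 at an unadjusted limma p under 0.05). Of all genes 14.8%, 16.8% and 0.535% passed for these pairs in that fit, and 4.02%, 2.87% and 0.68% for PEE, PH and TA. The count for PEE-TA was 8 without control replicate 3 and 8 without PEE-TA replicate 2. For PH-TA it was 13 without control replicate 3 and 15 without PH-TA replicate 1.

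Markers of other cell types moved in the comparisons of PEE-PH and PEE-TA with control. Of 7 skeletal muscle markers 6 rose with each (sums of 35.5 to 43.8 and 30.9 to 52.1, against 16.4 to 20.5 in control arrays), and of 8 inner root sheath markers 7 rose with each (907 to 954 and 921 to 987, against 500 to 672). Of 5 endothelial markers 4 rose with PEE-PH and 5 with PEE-TA (9.24 to 10.9 and 7.5 to 10.4, against 5.53 to 6.36). Of 5 mast cell markers 1 rose with each, and 4 fell with PEE-PH and 2 with PEE-TA (16.8 to 21.2 and 17.6 to 23.3, against 23.1 to 38.2). Their part in the member results was not tested.

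With PH-TA 7 of the 8 inhibitors rose, Kremen2 being the other, where 29.6% of all genes passed in either direction. None of these 7 calls held with the array signal as a covariate, nor did those of the R-spondins given below. The largest rise was that of Wif1, at -0.14, -0.32 and -0.64 in control arrays and 0.97, 0.72 and 0.17 with PH-TA. The difference was 0.99 ± 0.22 (limma adjusted p = 0.00302). Sfrp2 rose by 0.81 ± 0.24, Sfrp4 by 0.76 ± 0.18 and Dkk3 by 0.58 ± 0.14, with Sfrp1 (0.52), Dkk2 (0.49) and Kremen1 (0.21) smaller. The calls of Sfrp1, Dkk2 and Kremen1 were lost without any 1 of the control arrays or without PH-TA replicate 1 or 2, and that of Sfrp2 without control replicate 3 or PH-TA replicate 1 or 2. Kremen1 turned to -0.28 with the mean of its tested probes and to -0.02 with the array signal as a covariate, neither of which passed, and another of its probes fell by 0.75 in the average effect of PH (limma adjusted p = 0.0124). Sfrp1 did not pass with normexp background (0.23), and Dkk2 did not pass in the authors' value table or with the replicate block. Rspo1 (0.57), Rspo3 (0.89) and Rspo4 (0.89) rose beside them, Rspo4 not without PH-TA replicate 1. With normexp background Rspo3 (0.09) and Rspo4 (0.02) did not pass. In the same comparison 4 of 5 endothelial markers rose (sums of 8.02 to 12 against 5.53 to 6.36 in control arrays), 4 of 7 skeletal muscle markers rose (26.7 to 30.9 against 16.4 to 20.5), and of 5 mast cell markers 1 rose and 4 fell (13.6 to 19.7 against 23.1 to 38.2). Their part in the rises was not tested. Sfrp4 rose most with PEE-PH, at -1.85, -1.74 and -1.84 in control arrays and -0.90, -0.79 and -0.94 with PEE-PH, a difference of 0.94 ± 0.18 (limma adjusted p = 6.91e-04).

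The single member that fell with PH-TA was Wnt7a, a ligand of follicle epithelium, which was described by array for that reason. It stood at -0.36, -0.46 and -0.57 in control arrays and at -1.20, -1.15 and -1.13 with PH-TA (-0.70 ± 0.17, limma adjusted p = 0.00562). It also fell with PEE-PH, at -1.34, -1.09 and -1.21 (-0.75 ± 0.17, limma adjusted p = 0.00239), and with PEE-TA, at -0.71, -1.41 and -1.47 (-0.73 ± 0.17, limma adjusted p = 0.00469). All arrays of the 3 pairs lay below the control arrays. With PEE, PH or TA alone (-0.12, 0.06 and -0.30) and with all 3 compounds (-0.18) it did not pass. In the fit with the array-signal covariate it passed with PEE-PH (-1.01) and PEE-TA (-0.87) and not with PH-TA (-1.05, limma adjusted p = 0.0740).

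With all 3 compounds, PEE-PH-TA, limma called 7 of 45, 5 higher and 2 lower, against 16.5% of all genes (7.78% higher and 8.72% lower), with a median of 0.07 against -0.00 for all genes. The rises were Nkd1 (0.70), Fzd1 (0.66), Wnt11 (0.61), Fzd10 (0.44 ± 0.14, limma adjusted p = 0.0340) and Rspo1 (0.36 ± 0.12, limma adjusted p = 0.0385). The falls were Porcn and Wnt7b. With quantile normalization 7 were higher and 1 lower, against 17.1% of all genes in either direction. A fit with the array signal as a covariate called 7, 6 of them shared, and 14.3% of all genes. Without control replicate 1 or control replicate 2 the count was 4. The calls of Fzd10, Rspo1 and Wnt7b were lost without any 1 of the control arrays and without at least 2 of the PEE-PH-TA arrays.

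Tests against the sum of the single effects on the log2 scale asked whether compounds added up. The count of members called was 0 of 45 for each of the 4 sums by limma. Of all genes 0% passed for PEE-PH and for PEE-PH-TA, 0.068% for PEE-TA and 0.0136% for PH-TA. At an unadjusted p under 0.05 there were 12 members for PEE-PH, 7 for PEE-TA, 3 for PH-TA and 5 for PEE-PH-TA, with Rspo3 in all 4. With normexp background 7 of 45 members passed for PEE-PH, against 24% of all genes. Without a filter on dim probes 2 of 47 did, against 12.6% of all genes. The effect of 1 compound was also compared between pairs of backgrounds, in 12 differences. Those of PEE on PH, PEE on TA and PH on TA from the compound alone repeat the sums of the pairs. The others were chosen after seeing the data. Members passed in 6 of these: 6 for PEE on PH-TA against PEE on PH (13.4% of all genes), 3 for PH on TA against PH on PEE (3.89%) and 3 for PH on PEE-TA against PH alone (4.23%). The others were 17 for PH on PEE-TA against PH on PEE (27.5%), 4 for TA on PH against TA on PEE (3.82%) and 8 for TA on PEE-PH against TA alone (11.5%). In the remaining 6 differences, which include the repeated sums, limma called 0 members and at most 0.784% of all genes. There 3 to 13 members had an unadjusted p under 0.05.

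Other genes of the pathway moved as follows in the average effects, in which the shares of all genes that rose and fell were 12.8% and 14.2% (PEE), 13.9% and 17.4% (PH), and 2.78% and 5.2% (TA). Of 14 tested Wnt targets and follicle stem cell genes, 0 rose and 5 fell with PEE, 5 rose and 2 fell with PH, and 5 rose and 1 fell with TA. Lgr5, the stem cell receptor for R-spondins, fell with PEE (-0.65 ± 0.08, limma adjusted p = 1.29e-05) and rose with PH (0.46 ± 0.08) and TA (0.43 ± 0.08). Its relative Lgr6 fell with PEE (-0.48), and Ccnd1, which codes for cyclin D1, fell with PEE (-0.45) and PH (-0.27). Lef1, a partner of beta-catenin, rose with PH (0.54 ± 0.12) and TA (0.55 ± 0.12), and Prdm1 fell with PH (-0.22) and TA (-0.31). Lef1 stands in 3 of the lists used here, including that of hair matrix markers.

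Of 25 tested genes of intracellular transduction 3 rose and 1 fell with PEE, 8 rose and 1 fell with PH, and 1 rose and 0 fell with TA. In all, 27% of all genes passed with PEE, 31.3% with PH and 7.99% with TA. Dvl2, which relays the signal from Frizzled, rose with PEE (0.19) and PH (0.13), and Amer1, part of the destruction complex, fell with PEE (-0.17). Of 17 genes of beta-catenin-independent signalling 0 rose and 4 fell with PEE, 6 rose and 2 fell with PH, and 3 rose and 0 fell with TA. The Wnt5a receptor Ror1 fell with PEE (-0.44 ± 0.07), while the planar polarity genes Celsr1 (0.39), Vangl2 (0.33) and Prickle1 (0.32) rose with PH. Of 21 other ligands, receptors and inhibitors 5 rose and 3 fell with PEE, 4 rose and 7 fell with PH, and 3 rose and 3 fell with TA. Dkkl1, a Dickkopf-like protein, fell most with PEE (-1.15 ± 0.06, limma adjusted p = 1.58e-10), followed by Cthrc1 (-0.51), while Gpc6 rose (0.38). With PH the ligands Wnt8a (-0.71) and Wnt2 (-0.52) fell and Igfbp4 (0.45) and Apcdd1 (0.38) rose.

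Markers of follicle epithelium moved in the average effects of PH and TA as well. Of 8 inner root sheath markers 7 rose with PH and 7 with TA, and 0 fell in either. Their summed signal was 709 to 995 with PH and 444 to 987 without, and 735 to 995 with TA and 444 to 964 without. Of 7 hair matrix markers 5 rose with PH and 6 with TA, with sums of 13.1 to 22.7 and 13.5 to 23.4, against 11.8 to 23.4 and 11.8 to 20.5 without. Of 9 hair shaft markers 5 rose with each, with sums of 264 to 460 and 213 to 480, against 143 to 480 and 143 to 399. Fibroblast marker sums were 574 to 854 with PH-TA and 464 to 520 in control arrays, where 3 of 7 rose and 0 fell. The part of these cell types in the rises of receptors, R-spondins and inhibitors was not tested.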

How the data were processed

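The members and lists were chosen with earlier results of these data known. The deposited signal intensity values were made from scans of 24 arrays by Agilent Feature Extraction 12.0.3.1, per the file headers, which also give mm9 probe positions. Biotin is the label named by the submitters, and each scan holds 1 green channel. The authors' value table, deposited on a log2 scale, had array medians of 3.73 to 3.78, each of its 24 columns correlated best with its own scan, and its background step and centring are not given in the sources used here.

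Levels are log2 of processed signal intensity minus the array's 75th percentile. A probe was kept if some group had it well above background on all 3 arrays (33340 of 56605, and 25 were left out for a spot marked as an outlier or non-uniform). Each of the 22065 tested genes is read from its brightest probe by mean level. The limma fit had 1 mean per group, 16 residual and 2.19 prior degrees of freedom and 14 comparisons, with Benjamini-Hochberg adjustment within each and a threshold of 0.05. The number of arrays limits the precision.

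Array values are given for up to 3 members per role with the largest called average effect, where all 4 backgrounds and all 3 slides had 1 sign, and for the feedback targets. From the 4 pathway lists, genes with the largest changes are named. Alternatives were quantile normalization, normexp background with offset 50, the authors' table, the mean of a gene's probes, no filter on dim signal, a replicate block, a trended and robust prior, the array signal as a covariate, only the arrays compared, and leaving out each array or replicate number. Scripts were tested on simulated data. Symbols were checked by RefSeq accession (35405 probes matched). Tools were R 4.3.3, limma 3.58.1, data.table (1.17.8), Python 3.11.15 and matplotlib 3.10.9.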

Additional observations from a re-analysis of the deposited data

Results flagged for a closer look

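These members are listed because the effect of a compound differed between backgrounds by a limma test of the difference itself, with p-values adjusted over all genes. The 12 differences were chosen after seeing the data, apart from those that repeat the sums of the pairs. Each value is a difference of log2 differences. A negative value means that the effect was lower in the background named first. The effect of PEE on top of PH-TA minus that on top of PH passed for 6 of 45 members, against 13.4% of all genes. The members were Wnt6 (-0.64), Wnt7a (1.32), Fzd2 (-0.56), Fzd4 (-0.60), Sfrp1 (-0.86) and Sfrp4 (-1.21). The effect of PH on top of TA minus that on top of PEE passed for 3 of 45 members, against 3.89% of all genes. The members were Wnt11 (-0.55), Fzd10 (-0.81) and Rnf43 (-0.65). The effect of PH on top of PEE-TA minus that of PH alone passed for 3 of 45 members, against 4.23% of all genes. The members were Fzd1 (-0.68), Fzd4 (-0.74) and Rspo3 (-1.08).

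The effect of PH on top of PEE-TA minus that on top of PEE passed for 17 of 45 members, against 27.5% of all genes. The members were Wnt3 (-0.86), Wnt5a (-0.58), Wnt6 (-0.57), Wnt7a (1.17), Fzd1 (-0.95), Fzd2 (-0.82), Fzd4 (-0.87), Fzd5 (-0.78), Fzd7 (-0.43), Fzd10 (-1.03), Sfrp1 (-1.20), Sfrp4 (-0.92), Dkk3 (-0.77), Wif1 (-1.16), Porcn (-0.51), Kremen1 (-0.50) and Rnf43 (-0.79). The effect of TA on top of PH minus that on top of PEE passed for 4 of 45 members, against 3.82% of all genes. The members were Wnt11 (-0.57), Wnt16 (1.01), Fzd10 (-0.83) and Porcn (-0.65). The effect of TA on top of PEE-PH minus that of TA alone passed for 8 of 45 members, against 11.5% of all genes. The members were Wnt6 (-0.72), Wnt7a (0.87), Fzd1 (-0.58), Fzd2 (-0.55), Fzd4 (-0.75), Rspo3 (-1.25), Wif1 (-1.02) and Rnf43 (-0.58). Wnt7a had positive values in each of the 3 differences in which it passed, where its level was lower in a pair than with all 3 compounds. In the other 6 differences, which include the repeated sums, 0 members passed by limma, and 3 to 13 had an unadjusted p under 0.05. With the array signal as a covariate the 6 counts, in the order above, were 0, 0, 1, 0, 2 and 1. With normexp background they were 18, 5, 2, 23, 3 and 8.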

How the results depend on the processing

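Counts of members called follow, of 45, or of 47 without the filter on dim probes. With normexp background they were 7 for PEE against control, 1 for TA and 7 for PEE-PH against its sum, where 26.7%, 1.5% and 24% of all genes passed. Without a filter on dim probes TA gave 0 (14 at an unadjusted limma p under 0.05), PEE-PH-TA 4 and PEE-PH against its sum 2. Of all genes 0.451%, 8.12% and 12.6% passed there. With the array signal as a covariate the average effects gave 5, 1 and 0 for PEE, PH and TA, and PEE, TA, PEE-PH, PEE-TA and PH-TA against control gave 1, 0, 10, 9 and 1. Of all genes 22.1%, 1.17% and 0.0272% passed in the average effects, and 4.02%, 0.68%, 14.8%, 16.8% and 0.535% in these comparisons with control. With only the arrays compared, PEE gave 2, PH 0 (14 at an unadjusted limma p under 0.05), TA 1 and PEE-TA 8. Of all genes 4.83%, 1.44%, 0.906% and 14.5% passed in these. In the average effect of PH, Rspo4 (-0.0301) and Axin2 (-0.0911) turned with normexp background and Tcf7 (-6e-04) with the covariate. The cause was not tested.

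Leaving out 1 array or replicate number gave 3 to 12 for the average effect of PEE, 6 to 20 for PH and 0 to 15 for TA. Against control it gave 1 to 4 for PEE, 0 to 4 for PH, 0 to 2 for TA, 12 to 22 for PEE-PH, 3 to 12 for PEE-TA, 9 to 23 for PH-TA and 2 to 5 for PEE-PH-TA, and for the 4 sums 0. With the replicate block, which is also the slide, the average effects gave 14, 20 and 15. The block ended the calls of Dkk2 with PH-TA and Wnt7b with PEE-PH-TA. Same-number residuals correlated at -0.19 to 0.35 (median 0.103, and -0.05 for other pairs), and 19 of 24 arrays correlated best with their own number. Not every same-number pair was over 0.1, and the fit without the block is the one reported. Its p-values leave out the likeness between arrays of the same number. Without the filter the median of all genes was 0.12 for PEE, -0.19 for PEE-PH and -0.20 for PH-TA. Signal over background limits dim probes such as that of Rspo2.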
